A study of Gallus gallus with 8 samples.

Results

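Trigeminal ectoderm cultured with FGF2 was compared with otic ectoderm taken directly from the chick embryo, using 4 of the 8 arrays of the series. The FGF2-treated group held 2 arrays of ectoderm from the presumptive trigeminal placode, dissected at stage 8 of Hamburger and Hamilton and kept in collagen gels for 18 h in a defined medium to which 50 ng/ml FGF2 was added. The otic group held 2 arrays of ectoderm from the otic placode region, freshly dissected at stage 10 and never cultured. The remaining 4 arrays, 2 of trigeminal ectoderm cultured in the same way without FGF2 and 2 of fresh stage 10 ectoderm lateral to the otic region, entered the estimate of the spread and are given beside single genes. All 38439 probe sets other than controls were compared, and 13031 genes could be named. Each array was hybridised with amplified RNA of pooled pieces of ectoderm. Region of origin, stage and culture all differ between the FGF2-treated and otic groups and cannot be told apart, and the differences are a description of how far 2 tissues lay from each other.

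The otic placode is a thickening of the head ectoderm beside the hindbrain that later invaginates and forms the inner ear. Fibroblast growth factors from the mesoderm and the hindbrain start its formation, and the factors that follow, such as Wnt and Notch signals, separate otic cells from epidermis and from the neighbouring placodes. The trigeminal placode lies further forward and gives rise to sensory neurons of the face. The study reports that presumptive trigeminal ectoderm, part of the band of ectoderm that forms placodes, can express some otic markers when given FGF.

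A probe set was called higher or lower when its fold change was above 2 and its unadjusted p in limma was under 0.05. By these limits 1382 probe sets (3.6%) were higher in FGF2-treated than in otic ectoderm and 1496 (3.89%) were lower, which corresponds to 852 and 897 genes with at least 1 such probe set. On the brightest probe set of each gene, the unit used for the gene lists, 505 genes (3.88%) were higher and 434 (3.33%) lower. All list counts below are to be read beside these shares, and some lists lie near them. After adjustment over all probe sets 1 passed 0.05 (0.0026% of those tested), whereas 3023 (7.86%) had an unadjusted p under 0.05. When 32 was added to each intensity before taking the log2, which damps differences among dim probe sets, 97 probe sets (0.252%) passed an adjusted p of 0.05, 62 of them higher and 35 lower. Of the probe sets called higher, 933 had both otic values under the median of their array, and of those called lower, 1124 had both FGF2-treated values under it. The sizes of such differences are uncertain. Intensities are linear values, and all differences below are on the log2 scale, FGF2-treated minus otic, with the standard error (SE) of the limma fit and 2 arrays per group.

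The arrays were of similar overall brightness, with medians of 29.5 and 29.3 in FGF2-treated and 29.3 and 31.7 in otic ectoderm. The median difference over all probe sets was -0.045. The log2 intensities of the FGF2-treated arrays correlated at r = 0.933 with each other and at 0.907 to 0.915 with the otic arrays, against 0.921 to 0.926 with the untreated arrays. On the log2 scale, the 3′ minus 5′ difference of the actin control, larger where amplified RNA is shorter, was 1.35 and 1.24 in FGF2-treated and 1.32 and 1.36 in otic ectoderm, and that of the GAPDH control was 1.39 and 1.72 in FGF2-treated and 1.92 and 1.69 in otic ectoderm. Keratin 14 and TP63, which mark surface ectoderm, were present in both groups. KRT14 had intensities of 288.9 and 332.6 in FGF2-treated and 228.2 and 371.3 in otic ectoderm, and TP63 had 139.6 and 137.2 in FGF2-treated and 121.6 and 180.6 in otic ectoderm. These 2 genes do not stand for surface ectoderm genes as a whole. Of 39 epidermis and surface ectoderm genes, 6 were called higher (15.4%, against 3.88% of all genes) and 3 lower (7.69%, against 3.33%).

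Of the 42 otic transcription factors and co-factors measured, 3 were lower in FGF2-treated ectoderm (7.14%, against 3.33% of all genes) and 7 higher (16.7%, against 3.88%), with a median of 0.062. Without otic replicate 1, 4 were higher. GBX2, a homeobox gene of the hindbrain border and early otic placode, had intensities of 1445.6 and 1409.6 in FGF2-treated and 8359.8 and 8846.3 in otic ectoderm. The groups did not overlap, and the difference of -2.59 (SE 0.39, adjusted p = 0.14 in limma) was a 6.02-fold deficit. With the offset of 32 the difference was -2.56 (adjusted p = 0.024). In the same trigeminal ectoderm without FGF2, GBX2 stood at 149.3 and 224.2, and in lateral ectoderm at 303.8 and 454.6, so the FGF2-treated arrays lay between these and the otic arrays. GATA3, a zinc-finger factor needed for inner ear development, had 89.3 and 136.5 in FGF2-treated and 537.8 and 1040.6 in otic ectoderm (-2.76, SE 0.50, adjusted p = 0.17). Its untreated values of 155.4 and 110.5 were close to those of the FGF2-treated arrays. In bulk tissue, fewer cells that express a gene and less RNA per cell cannot be told apart.

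Among the genes listed as otic signals, receptors and matrix genes more were lower than higher. Of the 31 otic signals, receptors and matrix genes measured, 8 were lower (25.8%, against 3.33% of all genes) and 2 were higher (6.45%, against 3.88%). The median of the list was 0.077 beside -0.020 over all genes. The higher count was 1 without FGF2-treated replicate 1 and 0 without FGF2-treated replicate 2 or either untreated array. FGF19, a ligand that acts in early otic induction in the chick, had 97.7 and 73.8 in FGF2-treated and 349.7 and 359.9 in otic ectoderm (-2.06, SE 0.52, adjusted p = 0.32). HAS2, the enzyme that makes hyaluronan, had 723 and 803.4 in FGF2-treated and 2324.3 and 2872.5 in otic ectoderm (-1.76, SE 0.44, adjusted p = 0.32), and the untreated values of 433.8 and 825.8 reached the same height as the FGF2-treated ones. Follistatin, an extracellular antagonist of activins and BMPs encoded by FST, had 37.2 and 35 in FGF2-treated and 375.9 and 208.2 in otic ectoderm (-2.95, SE 0.53, adjusted p = 0.17). The study notes expression of FGF19 in mesoderm and endoderm and of FST in mesoderm. It also calls false positives from tissue outside the otic region likely in its otic set. What such tissue contributed here was not tested. The chemokine gene CXCL12 had 565.2 and 294.6 in FGF2-treated and 2706.1 and 4935.2 in otic ectoderm (-3.16, SE 0.61, adjusted p = 0.20). Its lateral values of 3878.4 and 2789.7 lay within the otic range, and of 3 other CXCL12 probe sets 1 was called (-3.79) and 2 were not (-1.98 and -2.90). GBX2, GATA3, FGF19, HAS2, FST and CXCL12 were called in all 15 alternatives, which are refits at the same limits with another scaling, filter or model or with 1 array fewer.

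For HS3ST3B1 and NTN3 the call depended on which arrays were used. HS3ST3B1, which sulfates heparan sulfate, a co-receptor of FGFs, had 455.4 and 644.1 in FGF2-treated and 5171.9 and 6618.6 in otic ectoderm, a difference of -3.43 (SE 1.32, adjusted p = 0.59). Its groups lay far apart, but its lateral values of 32.6 and 748.4 widened the shared error, and the call was lost without either FGF2-treated array (-3.18 and -3.68), either otic array (-3.61 and -3.26) or either untreated array (-3.43). NTN3, a netrin, had 21.1 and 3.1 in FGF2-treated and 213.1 and 43.9 in otic ectoderm (-3.58, SE 1.08, adjusted p = 0.43), a call lost without FGF2-treated replicate 2 (-2.20) or otic replicate 1 (-2.44) and in a fit of the 4 arrays alone. MEIS1, a homeobox co-factor of Hox proteins, had 3.7 and 7.3 in FGF2-treated and 33.8 and 57.8 in otic ectoderm (-3.09, SE 0.58, adjusted p = 0.19). It kept its call in all 15 alternatives, but its size is uncertain at this intensity, with -1.04 under the offset of 32.

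**Figure D1:**
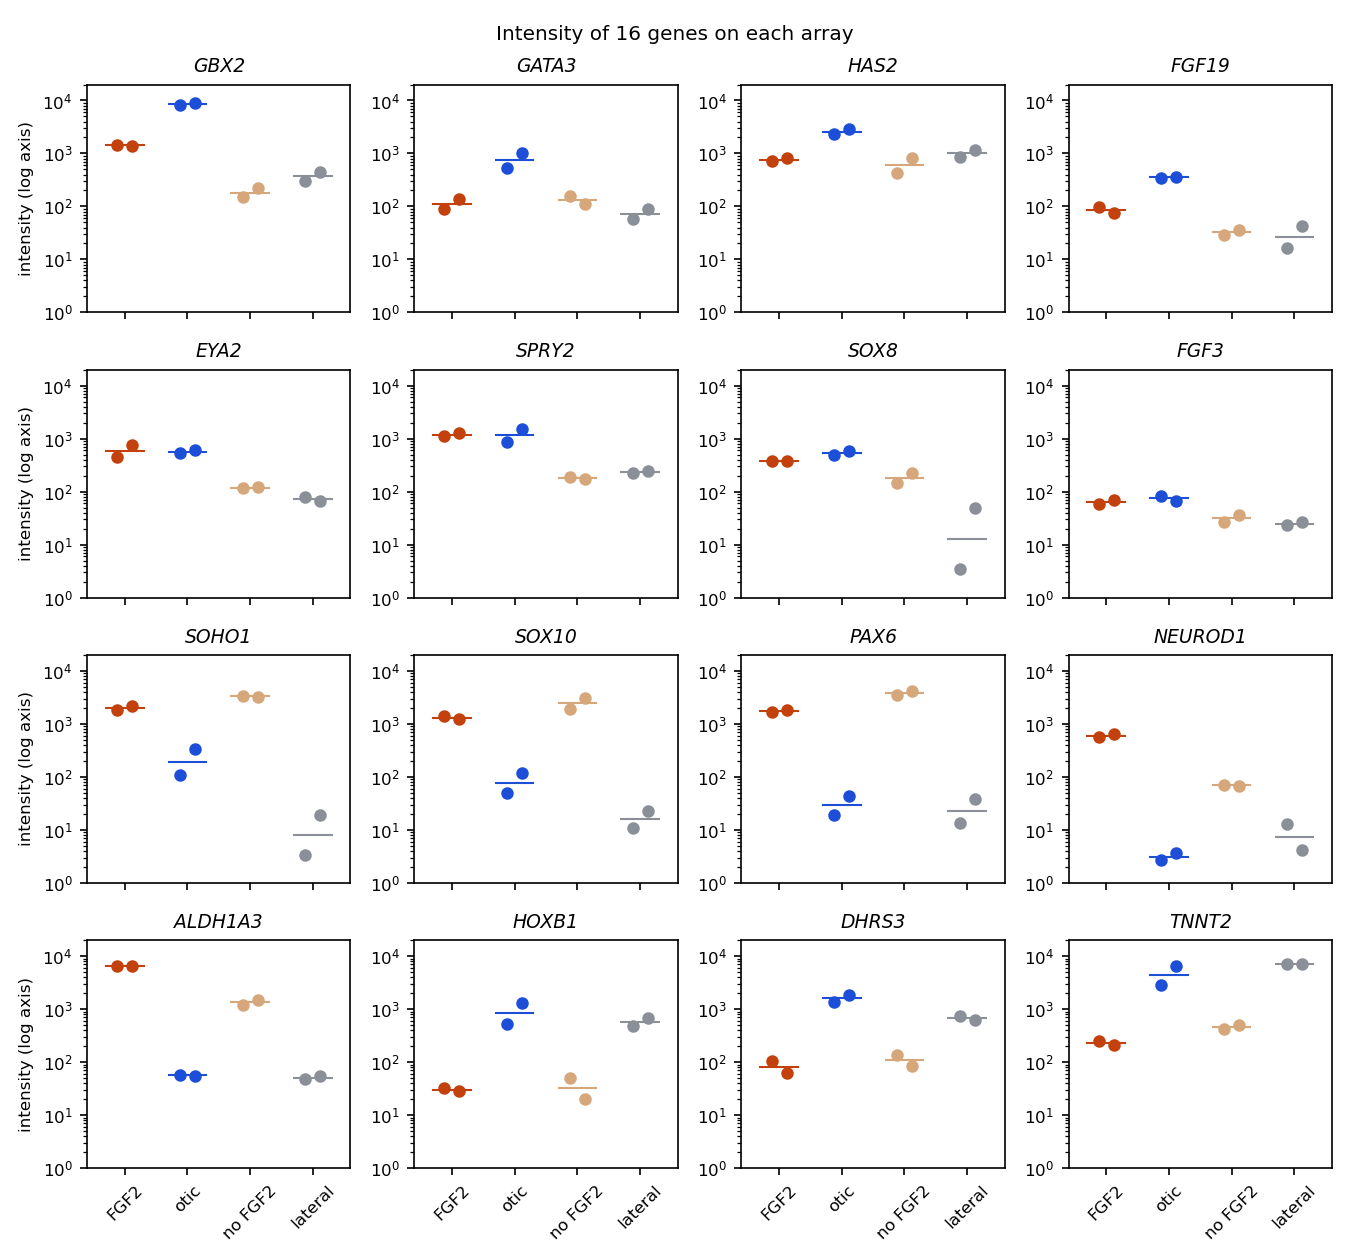
Intensity on a log axis for 16 genes on each of the 8 arrays (1 point an array, line: geometric mean of 2 arrays), in FGF2-treated trigeminal (FGF2), otic, untreated trigeminal (no FGF2) and lateral ectoderm. GBX2 stands at 1445.6 and 1409.6 in FGF2-treated and at 8359.8 and 8846.3 in otic ectoderm, whereas the FGF2-treated and otic values of EYA2 and SPRY2 overlap.

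For a larger set of otic and placodal genes no difference was called. Of 35 otic, placode and FGF genes named in the study, 25 were not called on their brightest probe set. Of the same 35, 5 were called higher and 5 lower, while over all genes 3.88% were higher and 3.33% lower. Among the 25, the 4 arrays overlapped for 13 genes and did not for 12. Over all 38439 probe sets, both FGF2-treated arrays lay below both otic arrays in 7968 and above them in 6475. EYA2, a transcriptional co-activator of placodes, had 449.6 and 756.6 in FGF2-treated and 532.1 and 599.5 in otic ectoderm, a difference of 0.046 with a 95% interval of -0.88 to 0.97. SPRY2, a feedback inhibitor of FGF receptor signalling, had 1102.3 and 1254.7 in FGF2-treated and 883.1 and 1505.5 in otic ectoderm (0.028, interval -0.91 to 0.96). Only for EYA2 and SPRY2 did the interval exclude a 2-fold difference in either direction. In untreated trigeminal ectoderm EYA2 had 115.7 and 122.4 and SPRY2 had 189.4 and 171.8, below every FGF2-treated and otic value.

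For most of the others the intervals were wide, so that the missing call does not place them at the otic level. FGF3, an otic inducer, had 59.3 and 71 in FGF2-treated and 83.9 and 66.7 in otic ectoderm (-0.21, interval -1.08 to 0.67). SOX8, an SRY-related factor of the early otic placode, had 383.9 and 378.6 in FGF2-treated and 486.8 and 586.4 in otic ectoderm (-0.49, interval -3.25 to 2.28). PAX2, the earliest otic marker in the chick, had 82.6 and 121 in FGF2-treated and 136.8 and 355.2 in otic ectoderm (-1.14, SE 0.68, interval -2.80 to 0.51). The arrays of PAX2 did not overlap, and the untreated values of 42 and 14 lay below both FGF2-treated values. SALL1, a zinc-finger gene, had 1753.9 and 1746.2 in FGF2-treated and 3686.1 and 4194.5 in otic ectoderm (-1.17, interval -2.46 to 0.13), and was called lower in 6 of the 15 alternatives, among them the offset of 32 (-1.15), the 4 arrays alone and the fits without either lateral array (-1.17). A second, dimmer SALL1 probe set was called lower, with 169.8 and 122.4 in FGF2-treated and 558.7 and 430.8 in otic ectoderm (-1.77, SE 0.64). JAG1, a Notch ligand of the future sensory patches, had 139.6 and 171.1 in FGF2-treated and 123.5 and 239.7 in otic ectoderm (-0.15, interval -2.91 to 2.60). The neurotrophin receptor gene NGFR, the guidance receptor gene ROBO2, and BMP7, LMX1B, AUTS2, IRX1, EPHA4, SMOC1 and TBX1 also had overlapping arrays, with differences of -1.33 for TBX1 to 1.14 for SMOC1. The TBX1 probe set of the study's otic list did not overlap, with 54 and 9.1 in FGF2-treated and 64.9 and 207.2 in otic ectoderm. Its difference of -2.39 (SE 1.08) was not called. In 17 of the 25 genes the interval reached a 4-fold difference.

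**Figure D2:**
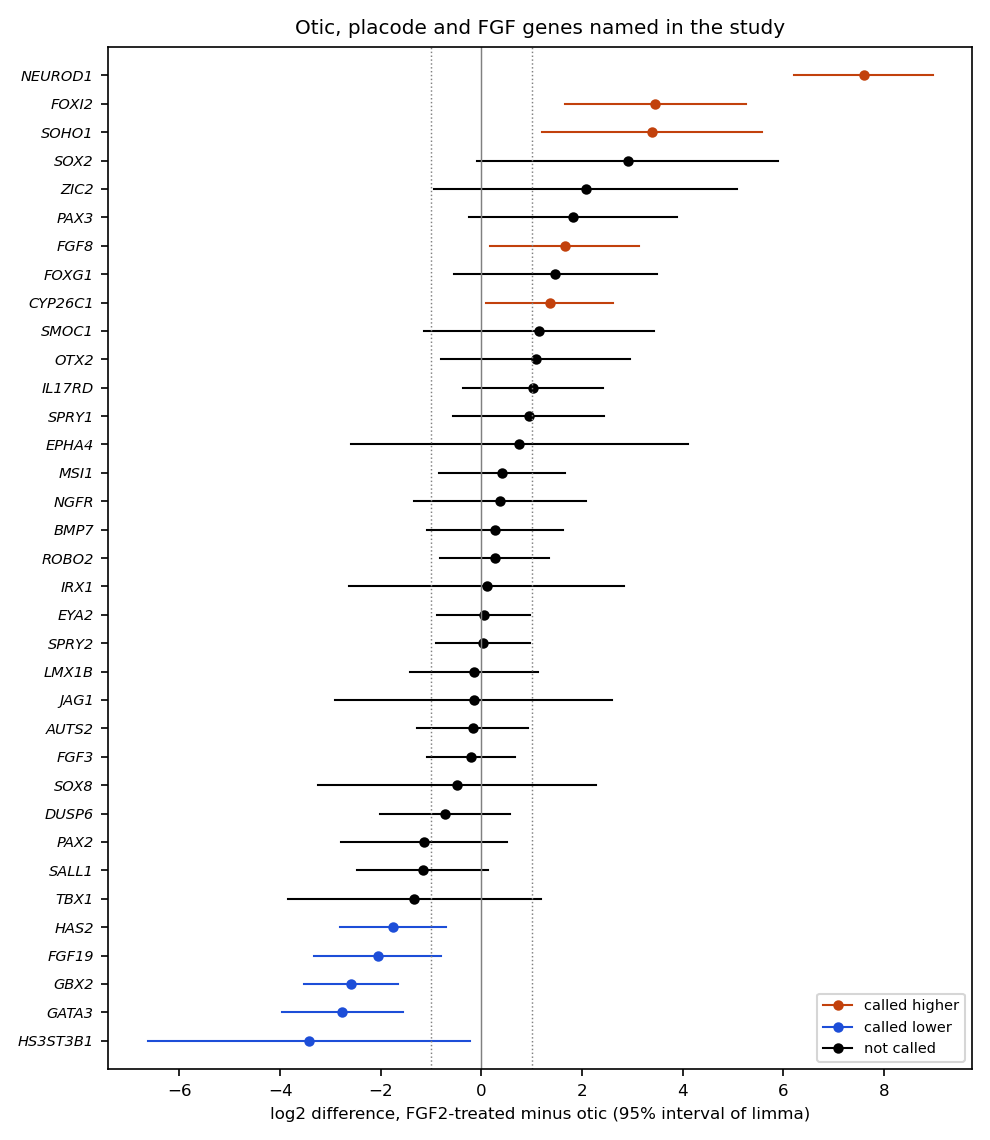
Log2 difference, FGF2-treated minus otic, with its 95% limma interval (2 arrays per group) for 35 genes named in the study, the dotted lines marking a 2-fold difference. In 25 genes, drawn in black, no call was made, 5 genes were called lower, the deepest being HS3ST3B1 at -3.43, and 5 were called higher, led by NEUROD1 at 7.59.

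Another set of otic genes was above the otic level, and of these SOHO1 and SOX10 had higher values still in untreated trigeminal ectoderm. SOHO1, a homeobox gene of the sense organs of the head, had 1818.4 and 2202 in FGF2-treated and 106.9 and 339.8 in otic ectoderm (3.39, SE 0.91, adjusted p = 0.36), with 3410.1 and 3247 in untreated trigeminal ectoderm. Without otic replicate 1 the SOHO1 call was lost (2.56). SOX10, which serves both otic epithelium and neural crest, had 1395.1 and 1228.4 in FGF2-treated and 50.5 and 117.1 in otic ectoderm (4.09, SE 0.58, adjusted p = 0.13), with 1909.6 and 3131.4 in untreated ectoderm. ZIC1, a zinc-finger gene of the neural plate border, had 2008.3 and 1607.3 in FGF2-treated and 93.1 and 4 in otic ectoderm (6.54, SE 1.78), and the call was lost without otic replicate 2 (4.27). SOX2, a factor of neural and sensory progenitors, had 4150 and 3393.3 in FGF2-treated and 345.9 and 720.7 in otic ectoderm. Its untreated values of 1288.3 and 3002.8 lay below both FGF2-treated values. The SOX2 difference of 2.91 (SE 1.24, adjusted p = 0.65) was not called although the FGF2-treated and otic arrays did not overlap, and its second probe set gave 0.86. SOX2 was called higher in 9 of the 15 alternatives (2.83 to 2.96), among them the offset of 32, the 4 arrays alone, both scalings and the fits without either lateral array.

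The study's own otic list gave the same spread in wider form. Its 344 matched probe sets had been selected as higher in these otic arrays than in lateral ectoderm, so their direction against otic ectoderm is not independent evidence. Against the otic arrays, 47 of them (13.7%, against 3.89% of all probe sets) were lower in FGF2-treated ectoderm, 26 (7.56%, against 3.6%) were higher and 271 were neither. The median difference of the 344 was 0.063, with quartiles of -0.58 and 0.61. The untreated minus otic median of the same probe sets was -0.36. The 52 probe sets that the study also listed as raised by FGF2 had a median of 0.34 in FGF2-treated minus otic and of -1.59 in untreated minus otic, with 11 higher and 6 lower in FGF2-treated ectoderm. The 6 lower ones, raised by FGF2 in the study's list and still short of the otic value, included GBX2, HS3ST3B1 and the adaptor gene NEDD9, which had 106.5 and 140.3 in FGF2-treated and 714.8 and 1182.9 in otic ectoderm (-2.91, SE 0.54). The other 292 had a median of 0.033, with 15 higher and 41 lower. Both comparisons share the otic and trigeminal arrays that chose the lists.

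**Figure D3:**
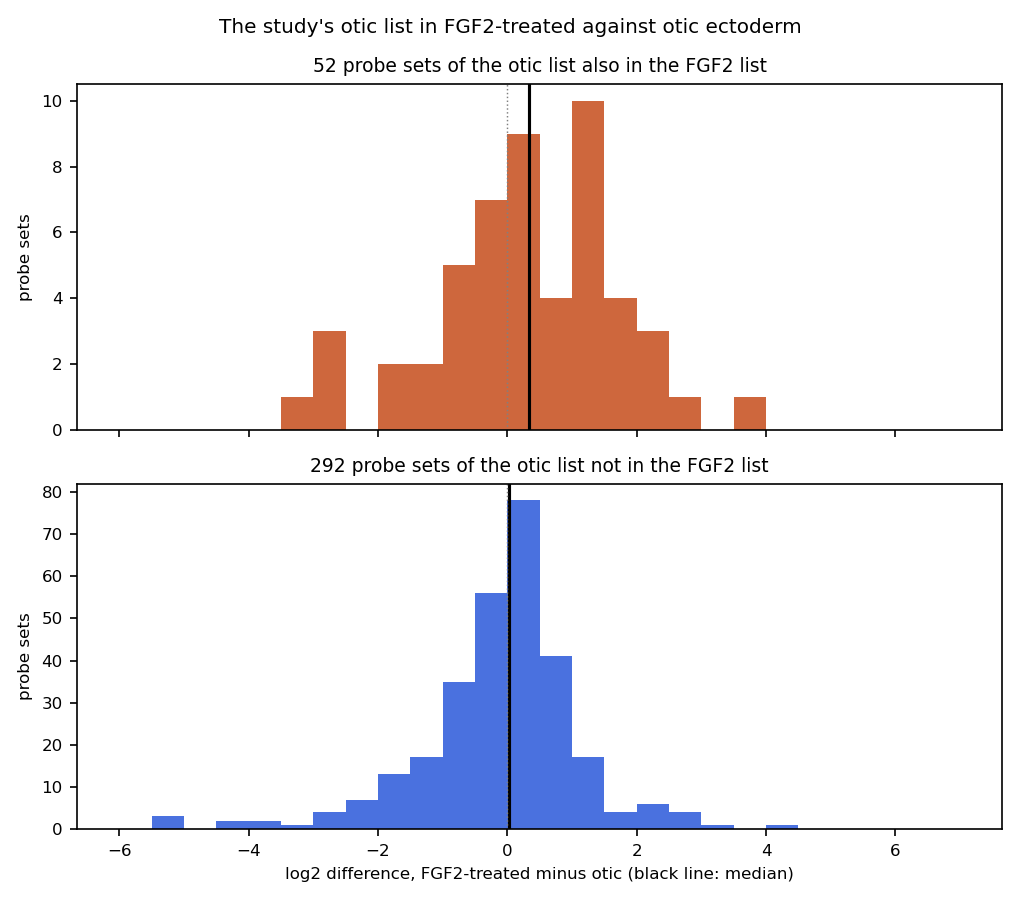
Histograms of the log2 difference, FGF2-treated minus otic, for the study's otic list split by membership of its FGF2 list (52 probe sets above, 292 below, vertical axes differ, black line: median). The medians are 0.34 and 0.033, and both distributions run from deficits of more than 3 to excesses of more than 3.

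FGF feedback genes gave few calls, whereas FGF ligands and receptors gave calls in both directions. Of 29 feedback and target genes of the FGF and MAP kinase pathway, 2 were higher (6.90%, against 3.88% of all genes) and 1 lower (3.45%, against 3.33%), with a median of 0.094. Without FGF2-treated replicate 1 the higher count was 1, and the lower count was 0 without either FGF2-treated array or otic replicate 1. The higher count was 4 with quantile normalization and with the eBayes trend, which lets the prior variance follow the intensity. DUSP6, a phosphatase that switches off ERK and is a standard readout of FGF signalling, had 434.6 and 566.3 in FGF2-treated and 573.4 and 1170.8 in otic ectoderm (-0.72, interval -2.02 to 0.57), against 51.8 and 76.8 in untreated ectoderm. SPRY1, another feedback inhibitor, had 492.1 and 476 in FGF2-treated and 196.6 and 323.8 in otic ectoderm (0.94, interval -0.56 to 2.44). IL17RD, a membrane antagonist of FGF receptors, had 2032.4 and 2033.2 in FGF2-treated and 855.8 and 1166.1 in otic ectoderm (1.02, interval -0.37 to 2.42). The arrays of these 3 genes did not overlap, but no call was made, other than for IL17RD in a fit of the 4 arrays alone.

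Among the 23 ligands and receptors, 3 were higher (13.0%, against 3.88% of all genes) and 3 were lower (13.0%, against 3.33%). With the offset of 32, 1 was higher and 2 were lower. Both counts also fell without certain single arrays. By in situ hybridization, the study found FGF8 mostly missing from the otic placode but strong in the ectoderm next to it. On the arrays FGF8 had 164.4 and 278.2 in FGF2-treated and 39.1 and 117.8 in otic ectoderm (1.66, SE 0.61, adjusted p = 0.57). Its call was lost without FGF2-treated replicate 2 (1.28), otic replicate 1 (0.86) or either untreated array (1.66), and in a fit of the 4 arrays. FGFR3, a receptor, had 442 and 552 in FGF2-treated and 1065.9 and 1973.4 in otic ectoderm (-1.55, SE 0.45, adjusted p = 0.41), a call lost without FGF2-treated replicate 1 (-1.39) or otic replicate 2 (-1.11). Another FGFR3 probe set was also called lower (-1.52), while others gave -0.95 and 1.20 and were not called. The FGF9 and FGF2 genes were called higher at intensities under the array medians, and both calls were lost with the offset of 32, where the differences were 0.65 and 0.60. The FGF2 gene lost its call also without FGF2-treated replicate 1 (2.57) or otic replicate 1 (1.59).

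Among genes of the lens, nose and anterior head ectoderm every call was an excess. Of 28 anterior placode and lens genes measured, 12 were higher (42.9%, against 3.88% of all genes) and 0 were lower, with a median of 1.37. ALDH1A3, which makes retinoic acid in the anterior head and optic region, had 6400.6 and 6598.4 in FGF2-treated and 56.8 and 55.5 in otic ectoderm. This was a 116-fold excess (6.85, SE 0.33, adjusted p = 0.018), the one difference that passed adjustment in limma, and in untreated ectoderm ALDH1A3 had 1183.7 and 1513.3. PAX6, the paired-box gene of lens and anterior placodes, had 1671.9 and 1838.5 in FGF2-treated and 19.2 and 44.3 in otic ectoderm (5.91, SE 0.63, adjusted p = 0.12), and its untreated values of 3587.7 and 4168.9 were higher still. SIX3, a homeobox gene of the anterior neural plate and lens, had 1178.9 and 967.8 in FGF2-treated and 9.5 and 13.8 in otic ectoderm (6.54, SE 0.47, adjusted p = 0.056), with 1540.5 and 1119.8 in untreated ectoderm. ASL1, which encodes the delta-crystallin of the bird lens, had 327 and 1779.3 in FGF2-treated and 16.3 and 8.2 in otic ectoderm (6.04, SE 1.00, adjusted p = 0.16). CRYAB, a small heat shock protein that is also a lens crystallin, had 63.9 and 65.2 in FGF2-treated and 10.2 and 7.1 in otic ectoderm (2.92, SE 0.70, adjusted p = 0.30).

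Among genes of placodal neurogenesis more were called higher than lower. Of 29 trigeminal, epibranchial and sensory neuron genes, 6 were higher (20.7%, against 3.88% of all genes) and 1 was lower (3.45%, against 3.33%), with a median of 0.84. Without FGF2-treated replicate 1 both counts fell. The lower count was 2 without otic replicate 1 and 0 without otic replicate 2. NEUROD1, a basic helix-loop-helix factor of differentiating sensory neurons, had 561.6 and 646.8 in FGF2-treated and 2.7 and 3.6 in otic ectoderm (7.59, SE 0.57, adjusted p = 0.056). Since the otic values were so far under the array medians, the size is uncertain, and with the offset of 32 it was 4.17 (adjusted p = 0.0007). Untreated ectoderm had 71.8 and 68.2. FOXI2, a forkhead gene that the study describes as confined to non-otic ectoderm, had 739.8 and 1690.7 in FGF2-treated and 50.9 and 204.3 in otic ectoderm (3.46, SE 0.74, adjusted p = 0.25). In the study's FGF2-treated trigeminal cultures, FOXI2 was induced and lay apart from PAX2 expression. NEUROG2, which acts upstream of NEUROD1, had 83.2 and 54.8 in FGF2-treated and 12.1 and 0.9 in otic ectoderm (4.28, SE 1.40), a call lost without FGF2-treated replicate 1 (3.98), FGF2-treated replicate 2 (4.58) or otic replicate 2 (2.48). PAX3, the marker of the ophthalmic trigeminal placode, was dim, with 34.4 and 18.6 in FGF2-treated and 11.1 and 4.6 in otic ectoderm, and its difference of 1.82 (SE 0.86, adjusted p = 0.71) was not called, although it was in a fit of the 4 arrays alone and without either lateral array (1.82).

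**Figure D4:**
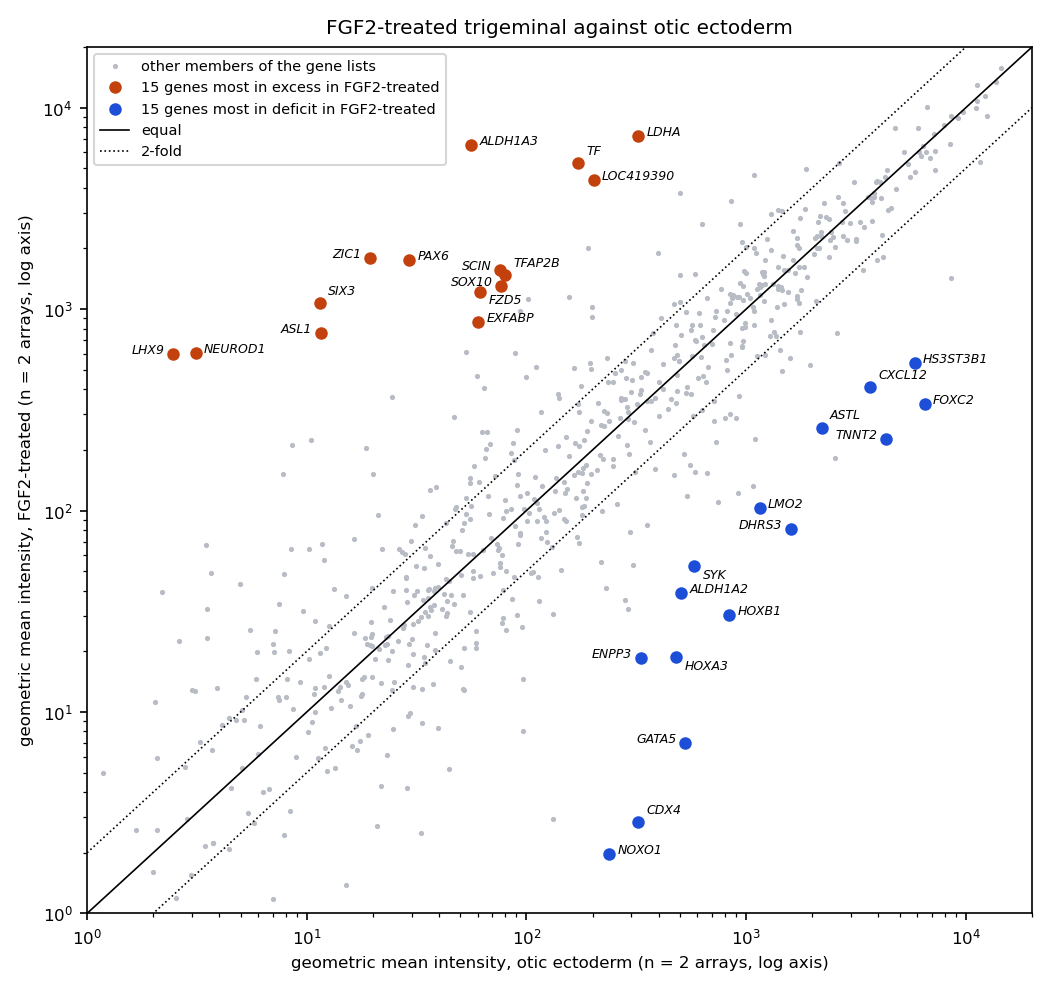
Geometric mean intensity of FGF2-treated (vertical) against otic ectoderm (horizontal), both on log axes with 2 arrays each, with the 15 named genes of largest excess and of largest deficit in FGF2-treated ectoderm and, in grey, the other members of the gene lists. ALDH1A3 lies 116-fold above the line of equal values and FOXC2 19.3-fold below it.

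Some neural tube and neural crest markers were also higher in FGF2-treated ectoderm. Of 23 neural tube genes, 12 were higher (52.2%) and 0 lower, with a median of 1.20 and a summed level of 20357 and 20068 in FGF2-treated and 6726 and 7878 in otic ectoderm. Without FGF2-treated replicate 1 the count was 7, and without replicate 2 it was 6. The 12 include PAX6, ZIC1, HES5 and NEUROG2, which placodes express too. In untreated ectoderm the summed level was 14656 and 21844. Of 24 neural crest genes, 6 were higher (25%, against 3.88% of all genes) and 2 lower (8.33%, against 3.33%). The higher count fell without FGF2-treated replicate 2. TFAP2B, a factor of crest and surface ectoderm, had 1410.5 and 1531.6 in FGF2-treated and 69.8 and 90.9 in otic ectoderm (4.21, SE 0.36, adjusted p = 0.085), with 949.3 and 1319.8 in untreated ectoderm. PAX7, a crest and dorsal neural tube gene, had 50.7 and 80.9 in FGF2-treated and 18.9 and 5.5 in otic ectoderm (2.65, SE 0.78), a call lost without FGF2-treated replicate 2 (2.31) or otic replicate 2 (1.76). The endothelin receptor gene EDNRB ran the other way, with 27.3 and 25.5 in FGF2-treated and 96.2 and 95.1 in otic ectoderm (-1.86, SE 0.37, adjusted p = 0.21). The part of neural or crest cells in the other differences was not tested.

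Some Notch genes were higher too. Of 16 Notch ligands, receptors and targets, 4 were higher (25%, against 3.88% of all genes) and 0 lower, with a median of 0.51. HES5, a transcriptional repressor induced by Notch, had 706.5 and 530.3 in FGF2-treated and 60.3 and 46.4 in otic ectoderm (3.53, SE 0.61, adjusted p = 0.17), and the related HEY1 had 3447.1 and 3415.1 in FGF2-treated and 610.2 and 1202.9 in otic ectoderm (2.00, SE 0.41, adjusted p = 0.23). A second, dimmer HES5 probe set gave 1.02 and was not called. LOC419390, named as a hairy and enhancer of split gene in the study's tables, had 5179 and 3662.3 in FGF2-treated and 136.6 and 299.8 in otic ectoderm (4.43, SE 0.65, adjusted p = 0.14). HES5 and HEY1 kept their calls in all 15 alternatives, but the count of 4 was 2 with the offset of 32, without FGF2-treated replicate 2 and without either otic or either untreated array.

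Some genes of posterior head identity were lower. Of 25 Hox and hindbrain patterning genes, 7 were lower (28.0%, against 3.33% of all genes) and 0 higher, with a median of -0.56, and the list summed to 2687 and 2649 in FGF2-treated and 10678 and 14121 in otic ectoderm. The untreated sums of 1483.5 and 1333.1 were lower still, and the lateral sums were 5393.3 and 5478.8. HOXB1, expressed in the hindbrain segment next to the otic region and in the tissue around it, had 31.9 and 28.5 in FGF2-treated and 530.4 and 1321.6 in otic ectoderm (-4.80, SE 0.62, adjusted p = 0.13). Its untreated values were 49.4 and 20.6, and its 4 dimmer probe sets gave differences of -2.26 to 0.60. CDX4, a caudal-type regulator of Hox genes, had 3 and 2.7 in FGF2-treated and 158.1 and 661.2 in otic ectoderm (-6.83, SE 0.95, adjusted p = 0.13), and its size is uncertain because the FGF2-treated values are near the floor, with -3.38 under the offset of 32. HOXA3 had 14.5 and 24.2 in FGF2-treated and 237.3 and 978 in otic ectoderm (-4.68, SE 1.37), a call lost without FGF2-treated replicate 1 (-4.32) or otic replicate 2 (-3.66). OTX2, a head gene of the forebrain and midbrain, was not called, with 2833.5 and 3307.2 in FGF2-treated and 1575 and 1336.3 in otic ectoderm (1.08, SE 0.78, interval -0.80 to 2.96), other than in a fit of the 4 arrays alone.

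The retinoic acid pathway, which patterns the hindbrain and the ectoderm beside it, changed in both directions. Of 17 genes of retinoic acid synthesis, breakdown and transport, 6 were lower (35.3%) and 4 higher (23.5%), or 2 higher without FGF2-treated replicate 2. ALDH1A2, the enzyme that makes retinoic acid in trunk and hindbrain-level mesoderm, was lower on its brightest probe set, with 132.3 and 131.4 in FGF2-treated and 622.1 and 1863.1 in otic ectoderm (-3.03, SE 0.58, adjusted p = 0.19), while its anterior relative ALDH1A3 was higher by 6.85. DHRS3, a retinaldehyde reductase induced by retinoic acid, had 104.4 and 62.1 in FGF2-treated and 1387.1 and 1835.2 in otic ectoderm (-4.31, SE 0.45, adjusted p = 0.12). CRABP1, a retinoic acid binding protein, had 145.1 and 160.3 in FGF2-treated and 19 and 21 in otic ectoderm (2.93, SE 0.48, adjusted p = 0.16). The study's in situ hybridization placed CYP26C1 mainly in ectoderm next to the otic placode, with little in the placode. CYP26C1, which degrades retinoic acid, had 1236.2 and 1806.8 in FGF2-treated and 422 and 804.8 in otic ectoderm (1.36, SE 0.52, adjusted p = 0.59), a call lost without either FGF2-treated array (1.63 and 1.08), otic replicate 1 (0.89) or either untreated array (1.36), and in a fit of the 4 arrays alone (1.36). ALDH1A2, DHRS3 and CRABP1 were called in all 15 alternatives.

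Wnt and BMP components gave few calls. Of 43 Wnt ligands, receptors and targets, 3 were higher (6.98%, against 3.88% of all genes) and 2 lower (4.65%, against 3.33%), with a median of -0.17. Without otic replicate 2 the counts were 6 and 0, without otic replicate 1 the lower count was 6, and without FGF2-treated replicate 1 it was 0. WNT2B had 242.5 and 554.5 in FGF2-treated and 11.7 and 51 in otic ectoderm (3.91, SE 0.99, adjusted p = 0.33), and WNT8B had 54.6 and 28.2 in FGF2-treated and 2 and 2.4 in otic ectoderm (4.16, SE 0.44, adjusted p = 0.12). The size for WNT8B is uncertain because its otic values are near the floor. The Wnt receptor gene FZD5 had 1655.4 and 899.4 in FGF2-treated and 53.8 and 70.4 in otic ectoderm (4.31, SE 0.47, adjusted p = 0.12), on the probe set of largest difference, while its 2 other probe sets gave -0.73 and 0.92. Of 37 BMP, activin and TGF-beta genes, 1 was higher (2.70%) and 3 lower (8.11%). The higher count was 5 without otic replicate 2 and 0 without FGF2-treated replicate 2 or any untreated or lateral array, and the lower count was 6 without otic replicate 1. BMP5 had 111.6 and 211 in FGF2-treated and 426.2 and 1038.2 in otic ectoderm (-2.12, SE 0.54, adjusted p = 0.33). CER1, a secreted antagonist of BMP, Nodal and Wnt proteins that is best known from the anterior endoderm, had 3.8 and 2.3 in FGF2-treated and 128.9 and 136.1 in otic ectoderm (-5.49, SE 0.83, adjusted p = 0.14), and -2.23 with the offset of 32 (adjusted p = 0.024).

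Some markers of deeper tissues were lower in FGF2-treated ectoderm. Of 30 endothelium and blood genes, 10 were lower (33.3%) and 0 higher, with a median of -1.09, and 4 were lower without either FGF2-treated array or without otic replicate 2. LMO2, a partner of transcription factors in blood and endothelial precursors, had 96.5 and 110.3 in FGF2-treated and 1548.1 and 858.4 in otic ectoderm (-3.48, SE 0.45, adjusted p = 0.13). KDR, the receptor for VEGF, had 32.4 and 32.3 in FGF2-treated and 210.5 and 399.2 in otic ectoderm (-3.16, SE 0.68, adjusted p = 0.24). Of 22 heart field genes 4 were lower (18.2%) and 0 higher. TNNT2, cardiac troponin T, had 246.2 and 208.9 in FGF2-treated and 2898.7 and 6481.6 in otic ectoderm (-4.26, SE 0.46, adjusted p = 0.12), and lateral ectoderm had 7222.3 and 7039.1. GATA5, of heart and endoderm, had 191.4 and 175.1 in FGF2-treated and 1489.9 and 4285.2 in otic ectoderm on its brightest probe set (-3.79, SE 1.27), a call lost without either FGF2-treated array (-3.85 and -3.72) or otic replicate 2 (-3.02). Of 19 endoderm genes 3 were lower (15.8%, against 3.33% of all genes) and 0 higher, 1 of the 3, SOX17, also counted as endothelial. Fewer were lower without either FGF2-treated array or otic replicate 2, and more without either untreated array.

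The summed levels of these lists stood apart between FGF2-treated and otic ectoderm. The heart field list summed to 4760 and 4777 in FGF2-treated and 9735 and 22901 in otic ectoderm, the endoderm list to 1915 and 1923 in FGF2-treated and 4172 and 7594 in otic ectoderm, and the endothelium and blood list to 2824 and 2549 in FGF2-treated and 5180 and 7153 in otic ectoderm. Otic replicate 2 was the higher otic array in all 3. In lateral ectoderm the sums were 17018 and 15668 for heart field, 11387 and 7536 for endoderm, and 9184.5 and 13004.8 for endothelium and blood. Untreated ectoderm had 4597 and 5448, 2111 and 727, and 3069 and 1932.5 for the same lists. Low sums were thus shared by the untreated cultures, and high sums by lateral ectoderm. Leaving out otic replicate 1 put the count of lower heart field genes at 11 and leaving out otic replicate 2 or FGF2-treated replicate 1 put it at 1, and it was 2 without FGF2-treated replicate 2. No member of these lists was under 1 on both arrays of either group. Of 31 mesoderm and mesenchyme genes, 6 were lower (19.4%, against 3.33% of all genes) and 3 higher (9.68%, against 3.88%). Both counts fell without FGF2-treated replicate 2, and the higher count rose without otic replicate 2. FOXC2, a forkhead gene of head mesenchyme that the study lists among its otic genes, had 320.3 and 354.3 in FGF2-treated and 5899.3 and 7164.6 in otic ectoderm (-4.27, SE 0.57, adjusted p = 0.13). DCN, the matrix proteoglycan decorin, had 823.3 and 1161.7 in FGF2-treated and 30.8 and 281.9 in otic ectoderm (3.39, SE 0.96), a call lost without FGF2-treated replicate 2 (3.14). The part of mesoderm, endoderm or blood vessel cells in the differences of the otic genes was not tested.

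**Figure D5:**
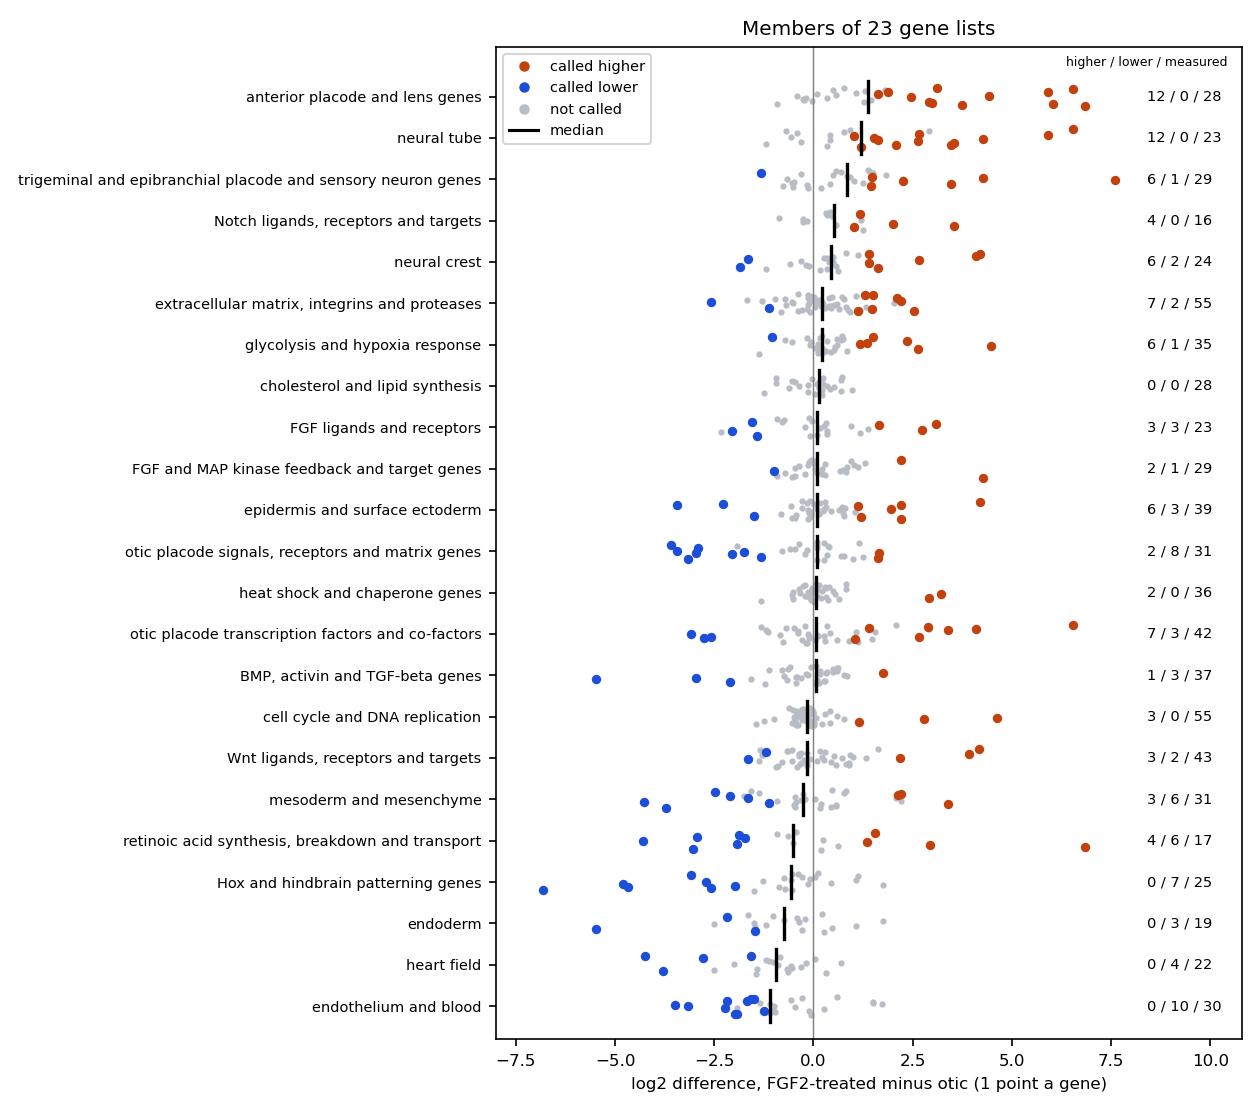
Log2 difference, FGF2-treated minus otic, for every measured member of 23 gene lists on its brightest probe set (1 point a gene, orange: called higher, blue: called lower, black bar: median), with the counts of higher, lower and measured members at the right. Anterior placode and lens genes have 12 higher and 0 lower of 28, and endothelium and blood genes have 0 higher and 10 lower of 30.

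Apart from the glycolysis and hypoxia list, metabolic and growth lists held few calls, and some single differences were large. LDHA, the lactate dehydrogenase subunit of anaerobic glycolysis, had 8302.9 and 6264.6 in FGF2-treated and 243.5 and 427.7 in otic ectoderm (4.48, SE 0.41, adjusted p = 0.10), and 5672.2 and 4837.1 in untreated ectoderm. PFKFB3, which promotes glycolysis, and ENO2, the neuronal enolase, were higher by 2.37 (SE 0.42) and 2.64 (SE 0.46). Other, dimmer PFKFB3 probe sets gave -0.056 and 0.40, not called, and 2.59, called. In all, 6 of 35 glycolysis and hypoxia genes were higher (17.1%, against 3.88% of all genes) and 1 lower (2.86%, against 3.33%). Fewer were higher without otic replicate 1. CDKN2B, an inhibitor of cyclin-dependent kinases, had 212.8 and 212.3 in FGF2-treated and 6.5 and 11.4 in otic ectoderm (4.63, SE 0.71, adjusted p = 0.15). Of 55 cell cycle and replication genes 3 were higher (5.45%, against 3.88% of all genes) and 0 were lower, with a median of -0.16. The 3 were CDKN2B, the related inhibitor CDKN1A (2.77, SE 1.08) and the cyclin gene CCND2 (1.15, SE 0.35). Without either FGF2-treated array the count of higher genes was 1, since CDKN1A (2.70 and 2.85) and CCND2 (1.17 and 1.13) lost the call, and CDKN1A lost it also without either otic array (3.13 and 2.41) or either untreated array (2.77). A block on the replicate number also ended the CDKN1A call (2.77). Of 28 cholesterol and lipid synthesis genes 0 passed both limits in limma, and of 36 heat shock and chaperone genes 2 did (5.56%, both higher).

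The matrix and epidermal lists gave calls in both directions, the lower share of the matrix list being near that of all genes. Of 55 matrix, integrin and protease genes 7 were higher (12.7%, against 3.88% of all genes) and 2 lower (3.64%, against 3.33%). The higher count was 4 without either FGF2-treated array and 15 without otic replicate 2, and the lower count was 0 without otic replicate 2 and 1 without FGF2-treated replicate 1 or either lateral array. COL10A1, a short-chain collagen, had 67.2 and 69 in FGF2-treated and 15.1 and 9.1 in otic ectoderm (2.54, SE 0.43, adjusted p = 0.16), and only 2.2 and 1.8 in untreated ectoderm. Of 39 epidermis and surface ectoderm genes 6 were higher (15.4%, against 3.88% of all genes) and 3 lower (7.69%, against 3.33%), with a median of 0.091. The higher count fell without FGF2-treated replicate 1 or otic replicate 1 and rose without otic replicate 2. PKP2, a desmosome component of epithelia and heart muscle, had 221.9 and 228.7 in FGF2-treated and 646.5 and 1842.2 in otic ectoderm (-2.28, SE 0.57, adjusted p = 0.32).

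Among the 15 genes of largest excess that belong to none of these lists, TF, the iron carrier transferrin, had 4756.5 and 5947.2 in FGF2-treated and 114.4 and 255.8 in otic ectoderm (4.96, SE 0.52, adjusted p = 0.12). Its untreated values of 8089 and 6743.7 were higher still. A second TF probe set gave 4.94, whereas 2 further ones annotated to TF gave -0.021 and 0.28, so the excess depends on the probe set. SCIN, an actin-severing protein, had 1504.2 and 1630.9 in FGF2-treated and 70.5 and 81 in otic ectoderm (4.37, SE 0.32, adjusted p = 0.056), with 1052 and 1008 in untreated ectoderm. LHX9, a LIM homeobox gene, had 932 and 381.4 in FGF2-treated and 6.1 and 0.7 in otic ectoderm (7.92, SE 1.28, adjusted p = 0.16), a size that rests on otic values near the floor, and its 4 other probe sets gave 0.62 to 6.31. EXFABP, an extracellular fatty acid binding protein, was higher by 3.84 (SE 1.5, adjusted p = 0.60). Its call was lost without either FGF2-treated array (3.83 and 3.85), either otic array (3.45 and 4.23) or either lateral array (3.84), and with quantile normalization (3.86). Among the deficits, NOXO1, an organiser of NADPH oxidase, had 0.6 and 3.9 in FGF2-treated and 341 and 166 in otic ectoderm (-6.91, SE 1.19, adjusted p = 0.17, and -2.99 with the offset of 32). The kinase gene SYK (-3.46, SE 0.91, and -0.44 on a second, dimmer probe set), the nucleotide-degrading enzyme gene ENPP3 (-4.15, SE 0.62) and the astacin-like protease gene ASTL (-3.10, SE 1.01) were also lower. The ASTL call was lost without FGF2-treated replicate 2 (-2.46), otic replicate 1 (-2.76) or otic replicate 2 (-3.44).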

How the data were processed

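RNA from ectoderm of 4 groups was hybridised to 8 Affymetrix chicken arrays, 2 per group. The deposited values are linear intensities, 1 per probe set and array, computed by the authors. Not given in the sources used here: how probes were summarised, corrected for background and scaled. The fold columns of the study's supplementary lists were not used. Of 38535 probe sets, 96 controls were left out. Of the 38439 tested, 27168 carried 1 symbol, 177 more than 1 and 11094 no symbol, with 98 symbols read from the study's tables alone.

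Intensities under 1 (2.30% to 2.90% per array) were raised to 1 before the log2, with no scaling or filter. A single linear model of all 8 arrays with group means was fitted by limma 3.58.1 (lmFit, eBayes, R 4.3.3, 4 residual and 2.32 prior degrees of freedom) and tested two-sided with Benjamini-Hochberg adjustment. Pools are the replicates, and nothing says whether they came from separate days. Arrays give no depth, and their number limits the precision.

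Named genes are the 15 per direction of largest difference on the log2(intensity + 32) scale among genes called with the floor and with that offset whose arrays do not overlap, up to 3 called members per direction of each list, and 35 genes named in the study. The members, lists and tests were chosen with earlier results of these data known. Alternatives were quantile normalization, median centring, the 4 arrays alone, leaving out the dimmest 40% of probe sets, eBayes with trend, the offset of 32, a block on the replicate number, omission of each array, and stricter limits. Where 1 array was left in a group, its spread was taken from the remaining groups. The same fit was also run on simulated data to check it. Plots were made in Python 3.11.15 (matplotlib 3.10.9).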

Additional observations from a re-analysis of the deposited data

How the results depend on the processing

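The 852 higher and 897 lower genes became 560 and 528 when the dimmest 40% of probe sets were left out, 343 and 251 with the offset of 32, and 266 and 235 where the fold had to exceed 4 and the unadjusted p had to be below 0.01. Leaving out each array in turn gave 656 to 1468 higher and 850 to 1063 lower genes, the 1468 being without otic replicate 2. The single probe set past an adjusted p of 0.05 in limma became 7 with quantile normalization, 68 without dim probe sets, 127 with the trend, 97 with the offset, and 0 in the fit of 4 arrays and without any one array (0 to 0), where 656 or more genes were still higher by the unadjusted limits. Quantile normalization and median centring put the median difference over all probe sets at -0.013 and 0.0070, against -0.045 without scaling. Of 97 called probe sets of named genes, 82 were tested in all 15 refits, of which 45 kept the call in each, and 15 were absent from the fit without dim probe sets, of which 3 kept it in the other refits. In these refits, which do not include the stricter limits, 0 of the 97 changed sign. The offset lost 18 of these calls and single arrays lost 6 to 29.

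With the replicate number as a block, 878 genes were higher and 929 lower, 0 probe sets passed an adjusted p of 0.05, and 7 of the 97 calls were lost. Deviations of same-numbered FGF2-treated and otic arrays correlated at 0.020 (-0.023 to 0.028 over 6 pairs of groups), so no deviation shared by same-numbered arrays was seen. Whether same-numbered pools were prepared together cannot be read from these correlations.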

Other observations

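Some genes outside the rule for named genes were singled out after their values had been seen, from those past an adjusted p of 0.05 in limma with the offset of 32. Among them, the neuropeptide genes GAL, NPY and GNRH1 were higher in FGF2-treated ectoderm, but not every neuropeptide gene was. GAL, which encodes galanin, had 586.4 and 521.7 in FGF2-treated and 81.3 and 59.3 in otic ectoderm, with 180.2 and 187.3 in untreated ectoderm (2.99, SE 0.34, adjusted p = 0.12, and 0.0067 with the offset). NPY, neuropeptide Y, had 143.5 and 191.3 in FGF2-treated and 16.1 and 19.9 in otic ectoderm, with 60.8 and 105.8 in untreated ectoderm (3.21, SE 0.46, adjusted p = 0.13). GNRH1, the gonadotropin-releasing hormone whose neurons arise in the nasal placode, had 250.3 and 199.2 in FGF2-treated and 4.7 and 23.3 in otic ectoderm, with 311.6 and 327.1 in untreated ectoderm (4.42, SE 0.73, adjusted p = 0.16). GHRH, which is on the study's otic list and was not singled out in this way, was called lower. It had 4.6 and 1.1 in FGF2-treated and 117.8 and 49.6 in otic ectoderm (-5.09, SE 0.90, and -1.67 with the offset).

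HMX1, a homeobox gene of eye and sensory ganglia, had 347 and 472.4 in FGF2-treated and 74.2 and 54.9 in otic ectoderm, with 988.5 and 783.4 in untreated ectoderm (2.67, SE 0.40). NAP1L2, a nucleosome assembly protein of neurons, is also on the study's otic list. It had 6359.9 and 6371.3 in FGF2-treated and 946.8 and 1223.7 in otic ectoderm (2.56, SE 0.33), with 4636.2 and 4981.9 in untreated ectoderm. SOCS2, a suppressor of cytokine signalling, had 2072.3 and 2756.5 in FGF2-treated and 421.2 and 367.1 in otic ectoderm (2.60, SE 0.37), with 807.8 and 685.8 in untreated ectoderm. RGN, the calcium-binding protein regucalcin, ran the other way at high intensity, with 1567.8 and 1537.3 in FGF2-treated and 9425.8 and 8195.6 in otic ectoderm (-2.50, SE 0.35). GAL, NPY, GNRH1, HMX1, NAP1L2, SOCS2 and RGN lost their call in 0 of 15 alternatives. The fit with the offset, which selected these genes, is among the 15, so the kept calls are not independent support.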
